A study of Mus musculus with 6 samples.

Results

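The genes described here are those of 5 small non-coding RNAs that work inside RNA-protein particles, together with 5 genes of proteins that bind them. Rpph1 is the RNA of ribonuclease P, Rmrp the RNA of ribonuclease MRP, Rny1 and Rny3 are the Y RNAs, and Terc is the telomerase RNA. The protein genes are Pop1 and Rpp30 (subunits of RNase P and MRP), Trove2 (the Ro60 protein), Ssb (the La protein) and Dkc1 (dyskerin). They were picked by symbol from a table of 22706 genes, all 10 were found once each, and all 10 passed the filter on low values. Because they were picked with earlier results of these data known, their values and differences are given as a description without p-values.

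The table holds RNA-seq of freshly sorted mouse muscle stem cells (MuSCs) from 3 groups with 2 libraries each. Control cells came from wild type mice. The mdx mouse carries a mutation in the dystrophin gene and is a model of Duchenne muscular dystrophy. The third group is labelled as mdx with Sirt6-mKO, a deletion of the deacetylase gene Sirt6 in muscle stem cells, which the study made with floxed Sirt6 alleles and a Cre recombinase driven from Pax7, so that the deletion is limited to cells with a history of Pax7 expression and their progeny. The labels give the strain as C57BL/6 for all groups and give neither age nor sex. Per the study's methods the mdx allele came from a C57BL/10ScSn-Dmdmdx/J stock, the mice were kept on C57BL/6 with littermate controls, and the legends to plots of these cells name males, 12 weeks of age in the heat maps of MuSC RNA. The legends to the main figures drawn from the same RNA give ranges of age that differ from each other. The methods count the 2 libraries of a group as biological replicates, and whether animals were pooled is not stated in the sources used here.

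Values are read counts that the authors divided by 1 size factor per library and rounded to whole numbers, called normalized read counts below. The spacing of the small values gave back the size factors (0.537 to 1.53) and with them an estimated 4397632 to 9745218 reads assigned to genes per library. Sirt6 itself had normalized read counts of 41 and 32 (control), 33 and 40 (mdx), and 37 and 30 (labelled Sirt6mKO/mdx). The value covers the whole gene and not only the floxed exons, and it did not separate the groups, so the third group is named by its label throughout. The study also typed Sirt6 alleles by PCR in sorted MuSCs and measured Sirt6 by RT-qPCR in MuSCs of all 3 genotypes, and those measurements were not analysed here. The control libraries had 16772 and 12950 for Xist, against 7 to 34 in the remaining ones, and the Y-linked Ddx3y at 3 and 8 against 1024 to 1767, which goes against the male sex given for the mice in the control libraries. Sex and the step from control to either mdx group cannot be told apart. Pax7, Itga7 and the other 6 MuSC markers summed to 21532 and 22545 (control), 21802 and 18416 (mdx), and 16648 and 18997 (labelled Sirt6mKO/mdx). Of the 8, Sdc4, a syndecan, was called lower in mdx (7692 and 6224 in control against 1100 and 1049, log2 difference -2.69, SE 0.28, limma adjusted p = 1.34e-05), higher in the third group against mdx (1.37) and lower in it against control (-1.31). The other 7 were not called, with Vcam1 at 0.78 and Cdh15 at 0.73 in mdx against control.

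Ribonuclease P cuts the leader from transfer RNA precursors, and ribonuclease MRP is a related particle that acts in ribosomal RNA maturation. They share most of their protein subunits. Y RNAs are short hairpins whose stem is bound by Ro60 and whose closing run of U is bound by La, a protein that protects new transcripts of RNA polymerase III. Telomerase copies the template within Terc onto chromosome ends, and dyskerin binds the H/ACA part of Terc and of many snoRNAs. RNA polymerase III makes RNase P, MRP and Y RNA from promoters that lie outside the transcribed stretch, whereas Terc is made by RNA polymerase II.

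The sequences of the RNAs show which letters they share, and protein binding was not measured here. On GRCm38, Rny1 lies at chr6:47788069-47788180 on the minus strand and Rny3 at chr6:47781624-47781725 on the plus strand, 6344 bases apart. Both are single exons with no coding sequence. Their 112 and 102 bases are identical at 81 of 112 aligned positions (72.3%). In the lines below, taken from the GENCODE M21 transcripts and written with T for U, capitals mark the stretches of 8 or more bases found in both and the closing run of 4 T, the end bound by La.
Rny1: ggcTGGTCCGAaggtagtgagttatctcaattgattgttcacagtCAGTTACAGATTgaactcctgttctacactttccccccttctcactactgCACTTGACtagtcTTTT
Rny3: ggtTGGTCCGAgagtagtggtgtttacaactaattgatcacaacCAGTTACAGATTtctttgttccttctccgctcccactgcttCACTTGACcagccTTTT
The first shared stretch, TGGTCCGA, is in 3 of 3529 small RNA transcripts of the annotation (0.085%) and the second, CAGTTACAGATT, in 5 (0.142%). A closing TTTT is common and is found in 492 of them (13.9%).

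Terc has 423 annotated bases at chr3:96414437-96414859 on the minus strand. Its first 90 bases and its last 45 bases are shown because they hold the template, CTAACCCT at bases 29 to 36, and the ACA box at bases 418 to 420, 3 bases before the end, both in capitals.
Terc, bases 1 to 90: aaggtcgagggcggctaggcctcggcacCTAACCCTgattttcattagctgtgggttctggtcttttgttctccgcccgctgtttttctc
Terc, bases 379 to 423: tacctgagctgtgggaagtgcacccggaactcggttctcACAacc
The template letters are in 10 of the 3529 small RNA transcripts (0.283%), and 324 (9.18%) have ACA at that distance from their end.

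Rpph1 has 319 bases at chr14:50807449-50807767 and Rmrp 271 bases at chr4:43492788-43493058, both on the minus strand and both single exons. Their aligned letters are identical at 51.9% of positions, but both hold GGAANGTC, in capitals below, which is in 33 of the 3529 small RNA transcripts (0.935%).
Rpph1, bases 40 to 87: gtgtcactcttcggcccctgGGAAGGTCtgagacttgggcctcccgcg
Rmrp, bases 47 to 94: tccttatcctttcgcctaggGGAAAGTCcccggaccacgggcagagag
The RNAs with the highest counts were also rich in G and C, with 67.1% for Rpph1 and 64.2% for Rmrp against 43.8% for Rny1 and 45.1% for Rny3. Terc, with the lowest counts of the 5, had 67.1%.

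Among the promoter windows of RefSeq used here (GRCm38.p6, 300 bases each), none was given for the 5 RNA genes themselves. That of Parp2, a poly(ADP-ribose) polymerase gene of the plus strand, runs over the 5′ end of Rpph1 at 50807767, since both start from the stretch between them with 179 bases separating the genes. It is shown because it holds the sequence upstream of Rpph1, with capitals for TATAA and for ATGCAAAT, the octamer bound by Oct1 (Pou2f1), each searched on both strands without overlap between them.
Parp2 window, chr14:50807666-50807965, plus strand: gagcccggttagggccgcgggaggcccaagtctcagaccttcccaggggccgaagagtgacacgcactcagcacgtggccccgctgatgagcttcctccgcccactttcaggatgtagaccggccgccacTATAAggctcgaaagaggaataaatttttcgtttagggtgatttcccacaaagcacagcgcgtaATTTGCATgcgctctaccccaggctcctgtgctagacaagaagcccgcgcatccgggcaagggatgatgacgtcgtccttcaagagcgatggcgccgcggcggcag
Counted upstream from the 5′ end of Rpph1, TATAA lay at 29 to 33 bases, on the plus strand, and ATGCAAAT at 93 to 100 bases, on the minus strand. The window of Ccdc107, a gene of the plus strand whose RefSeq window lies upstream of Rmrp although its GENCODE model begins inside Rmrp, holds both motifs on the plus strand, at 164 to 168 and 216 to 223 bases from the 5′ end of Rmrp, and leaves out the bases next to that end.
Ccdc107 window, chr4:43493115-43493414, plus strand: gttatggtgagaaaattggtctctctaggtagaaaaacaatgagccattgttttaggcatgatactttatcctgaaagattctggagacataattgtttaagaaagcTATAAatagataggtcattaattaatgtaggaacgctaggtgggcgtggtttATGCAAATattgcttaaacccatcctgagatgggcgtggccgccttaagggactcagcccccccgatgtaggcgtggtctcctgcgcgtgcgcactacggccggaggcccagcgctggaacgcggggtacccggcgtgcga
Of 32851 promoter windows, 8171 (24.9%) held TATAA, 570 (1.74%) held ATGCAAAT and 196 (0.597%) held both. These matches describe the letters of the windows and are not evidence of binding.

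The RNAs of RNase P and MRP were among the most abundant transcripts in every library, and their fitted levels in the pair labelled Sirt6mKO/mdx were 4.97 and 5.52 times those in mdx. Rpph1 (ENSMUSG00000092837) had normalized read counts of 106904 and 36156 (control), 68208 and 32030 (mdx), and 313776 and 172022 (labelled Sirt6mKO/mdx). Both libraries of the last group lay above the other 4, while control and mdx overlapped, and the first control library had 2.96 times the count of the second. The mean was 71530 ± 50026 (SD, n = 2) in control, 50119 ± 25582 in mdx and 242899 ± 100235 in the pair labelled Sirt6mKO/mdx. Per library the RNA took between 0.571% and 3.26% of all normalized counts, and its rank among all genes ran from 10 in the second control library to 3 in the first library labelled Sirt6mKO/mdx.

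Rmrp (ENSMUSG00000088088) had normalized read counts of 37327 and 16832 (control), 30465 and 19551 (mdx), and 158770 and 114439 (labelled Sirt6mKO/mdx). Again the third group lay above the rest without overlap and the mdx values fell inside the control range. Its means were 27080 ± 14492 (SD, n = 2), 25008 ± 7717 and 136604 ± 31347. The ratio of Rpph1 to Rmrp was 2.86 and 2.15 (control), 2.24 and 1.64 (mdx), and 1.98 and 1.5 (labelled Sirt6mKO/mdx), so that the ratios of neighbouring groups overlapped.

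On the log2(value + 1) scale, Rpph1 differed by -0.41 (SE 1.15) between mdx and control and Rmrp by -0.04 (SE 0.80). Neither sign is settled, since without the first control library the differences were 0.37 and 0.54, and without the second mdx library 0.13 and 0.28, while Rmrp was at 0.05 with the same upper quartile in every library and at 0.13 with the same protein-coding total. Against mdx, the pair labelled Sirt6mKO/mdx were higher by 2.31 (SE 1.15) for Rpph1 and 2.47 (SE 0.80) for Rmrp, and against control by 1.90 and 2.43. The standard errors include limma's prior variance, which here grew with abundance among the few most abundant RNAs, to an SE of 1.97 for Rn7sk. Neither RNA met the criteria used for all genes (limma adjusted p at most 0.05 and an absolute log2 fold change of at least 1) in any comparison, although Rmrp met them in both comparisons with the third group when genes with a mean of at least 50 were kept, a robust prior variance was used or the replicate number was a block, and Rpph1 met them against mdx with the robust prior.

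**Figure D1:**
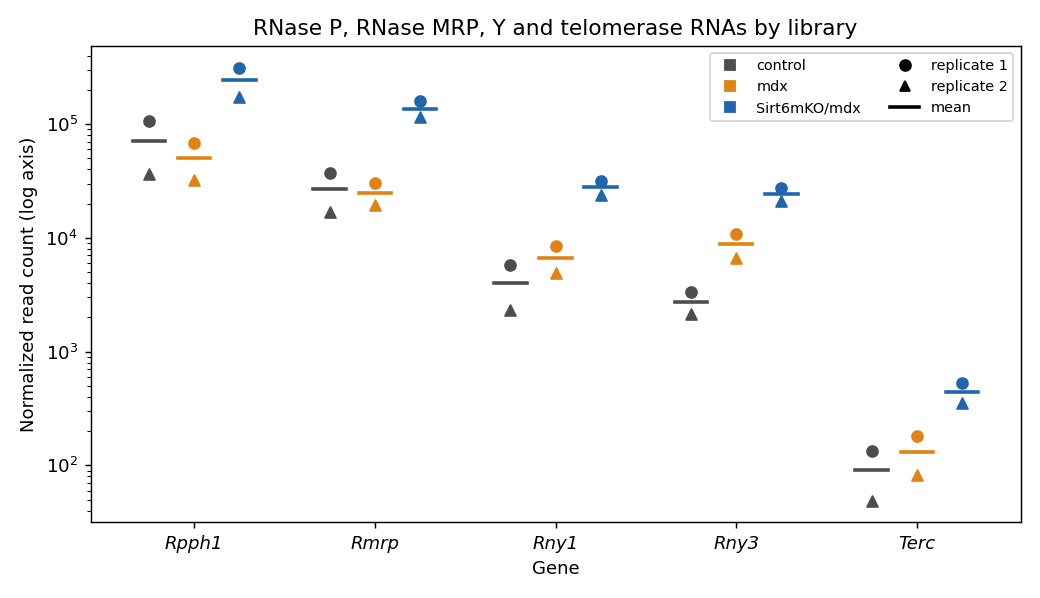
Normalized read count (log axis) of the 5 RNAs in each of the 6 libraries, with circles for replicate 1, triangles for replicate 2 and a line at the mean. For each RNA both libraries labelled Sirt6mKO/mdx lie above all others, and only for Rny3 do both mdx libraries lie above both control libraries.

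Of the Y RNAs, Rny3 lay higher in mdx than in control without overlap, and Rny1 did not. Rny3 (ENSMUSG00000064945) had normalized read counts of 3359 and 2134 (control), 10863 and 6679 (mdx), and 27184 and 21063 (labelled Sirt6mKO/mdx), so the 3 groups followed each other without overlap. The means were 2746 ± 866.2, 8771 ± 2959 and 24124 ± 4328 (SD, n = 2). Its fitted level in mdx was 3.18 times that in control (log2 difference 1.67, SE 0.41) and in the third group 2.81 times that in mdx (1.49, SE 0.41). The first difference was 1.34 without the second control library and 1.32 without the first mdx library, and no longer met the criteria in either case. The second was 0.86 when all libraries were brought to the same total.

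Rny1 (ENSMUSG00000065701) had normalized read counts of 5776 and 2303 (control), 8452 and 4898 (mdx), and 31592 and 23878 (labelled Sirt6mKO/mdx). Control and mdx overlapped, and the third group was higher than both. Its log2 difference was 0.82 (SE 0.48) for mdx against control, 2.09 (SE 0.48) for the pair labelled Sirt6mKO/mdx against mdx and 2.91 (SE 0.48) for these against control. The first of these was 0.16 without the second control library, 1.48 without the first, and 0.43 without the first mdx library. Over 17 alternatives the second ran from 1.47 to 2.49 and the third from 2.25 to 3.58. The ratio of Rny1 to Rny3 was 1.72 and 1.08 (control), 0.778 and 0.733 (mdx), and 1.16 and 1.13 (labelled Sirt6mKO/mdx). Rny3 thus had the higher count of the pair in both mdx libraries and the lower count in the other 4.

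Terc (ENSMUSG00000064796) was far less abundant than the other RNAs. Its normalized read counts were 134 and 49 (control), 180 and 83 (mdx), and 531 and 352 (labelled Sirt6mKO/mdx). They correspond to about 64 to 343 reads, which gives the second control library a share of 0.000887% (Wilson 95% interval 0.000695 to 0.00113) and the first library labelled Sirt6mKO/mdx 0.00552% (0.00496 to 0.00613), intervals that cover counting error only. The control and mdx values overlapped and the third group lay above both. The log2 difference was 0.59 (SE 0.45) for mdx against control, and it was -0.13 without the second control library. It was 1.81 (SE 0.45) for the pair labelled Sirt6mKO/mdx against mdx and 2.4 (SE 0.45) for these against control.

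In all, 3 of the 5 RNAs (Rny1, Rny3 and Terc) met the criteria upwards in each comparison with the pair labelled Sirt6mKO/mdx, where 5.62% of the 15915 tested genes did so against mdx and 5.19% against control. For mdx against control only Rny3 of the 5 did, where the share of tested genes was 6.89% upwards and 7.34% downwards. The mdx libraries lay above control without overlap for Rny3 alone among the 5 RNAs, and under control for none, beside 28.7% and 28.3% of tested genes. The third group lay above mdx without overlap for 5 of 5 RNAs, as for 28.8% of tested genes, and above control for 5 of 5, as for 26.3%. Against mdx, each of the 3 failed the criteria without the second mdx library or without either library labelled Sirt6mKO/mdx, and against control Rny1 and Terc failed them without either library labelled Sirt6mKO/mdx and Terc also without the second control library. All of these calls, and that of Rny3 in mdx against control, were also lost with no filter on low values and with 1 prior variance for all genes, and against mdx that of Terc was lost with the robust prior and that of Rny3 with the same total in every library and with only the 4 libraries compared. Nothing is read from these counts, since the RNAs were chosen with these differences known and the 2 comparisons share libraries.

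Values are also given per kilobase of annotated exonic length. That length was 102 bases (Rny3) to 423 (Terc) for the RNAs and 2160 (Ssb) to 9541 (Trove2) for the protein genes. Whether it matches the transcripts present, and whether short and long RNAs were recovered alike, was not tested. The order of RNAs and protein genes below therefore describes these values and not relative amounts of RNA. Over all 6 libraries Rpph1 had the highest mean, 380928 normalized counts per kilobase, followed by Rmrp with 232093, Rny3 with 116474, Rny1 with 114433 and Terc with 523.6. Rny3 and Rny1 changed places between groups, with 26926 and 36067 per kilobase in control and 85990 and 59598 in mdx. Their ranges over the 6 libraries overlapped, although Rny3 had the higher count in both mdx libraries. The protein genes had lower means over the 6 libraries, from 281.0 per kilobase for Ssb, through 65.4 for Dkc1, 34.0 for Trove2 and 18.8 for Rpp30, to 12.6 for Pop1. Ssb and Terc changed places between groups, since Ssb had a mean of 206.9 per kilobase (control), 401.4 (mdx) and 234.7 (labelled Sirt6mKO/mdx) and Terc 216.3, 310.9 and 1044.

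Other copies of the RNAs could take some of their reads, because reads that fitted several genes or places were left out by the authors. The annotation holds 3 genes at least 80% identical to Rpph1 over at least 80% of its length, Rprl1, Rprl2 and Rprl3, and none above 95%. They were looked up after the main values had been seen. Rprl3 had normalized read counts of 8 and 3 (control), 7 and 973 (mdx), and 57 and 24 (labelled Sirt6mKO/mdx), and Rprl1 had 327 in the second mdx library and 0 to 6 elsewhere. That library thus held more of both than any other, at levels well under its 32030 for Rpph1. Rny1 has 13 such relatives, of which 5 are in the table, namely Fpgt, a protein-coding gene, with 69 to 160, and 4 predicted genes with 0 to 73. Rny3 has none, and the 2 of Terc were not analysed here. A second annotated Rmrp gene that encloses the first was not analysed here. In GENCODE M21 an exon of Ccnb1ip1, at 0 to 3 in every library, overlaps 233 bases of Rpph1 on the same strand, and Ccdc107 overlaps 124 bases of Rmrp on the other strand. Whether counting used the strand is not stated in the sources used here, so reads from an RNA and from a gene on the other strand cannot be told apart.

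Of the 5 protein genes, Trove2, Ssb, Pop1 and Dkc1 were lower in the third group than in mdx, unlike the RNAs, while Rpp30 differed by 0.38 with overlap. Trove2 (ENSMUSG00000018199), whose Ro60 protein holds Y RNAs, had normalized read counts of 190 and 276 (control), 515 and 549 (mdx), and 212 and 207 (labelled Sirt6mKO/mdx). Both mdx libraries were above the other 4, and control and the third group overlapped. Its log2 difference was 1.21 (SE 0.27) for mdx against control, -1.34 (SE 0.27) for the pair labelled Sirt6mKO/mdx against mdx and -0.13 (SE 0.27) for these against control, which turned to 0.04 with the same protein-coding total and to 0.14 without the second control library. The first 2 met the criteria, but the first did not without the first control library or either mdx library, and the second did not with any 1 of the 4 mdx and Sirt6mKO/mdx libraries left out, and neither did with no filter on low values or with 1 prior variance for all genes. The ratio of Rny3 to Trove2 was 17.7 and 7.73 (control), 21.1 and 12.2 (mdx), and 128.2 and 101.8 (labelled Sirt6mKO/mdx). The last group was above the rest, and control and mdx overlapped.

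Ssb (ENSMUSG00000068882), the gene of La, had 391 and 503 (control), 937 and 797 (mdx), and 409 and 605 (labelled Sirt6mKO/mdx). As for Trove2, mdx was highest without overlap. The log2 difference was 0.96 (SE 0.27) for mdx against control and -0.80 (SE 0.27) for the pair labelled Sirt6mKO/mdx against mdx, neither of which met the criteria. The first met them without the second control library (1.14), with the same upper quartile (1.05) and with the same protein-coding total (1.13), and the second with the same total in every library (-1.42).

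Dkc1 (ENSMUSG00000031403), the gene of dyskerin, had 174 and 369 (control), 417 and 389 (mdx), and 94 and 175 (labelled Sirt6mKO/mdx). The third group was under mdx without overlap and overlapped control only by its higher value of 175, against 174 for the lower control library. The log2 difference was 0.67 (SE 0.36) for mdx against control, -1.64 (SE 0.36) for the pair labelled Sirt6mKO/mdx against mdx and -0.98 (SE 0.36) for these against control. The first was 0.13 without the first control library and 1.21 without the second. The last was -1.52 without the first control library, where it met the criteria as it did with the same total (-1.58), and -0.44 without the second and -0.53 without the first library labelled Sirt6mKO/mdx. Dkc1 lies on chromosome X and the control libraries differ from the rest in Xist. Xist was also called higher in the third group than in mdx (33 and 34 against 7 and 8, log2 difference 2.02, limma adjusted p = 0.000533). The part of sex or of chromosome X in the values of Dkc1 was not tested. The difference of Dkc1 from mdx met the criteria, though not without the first library labelled Sirt6mKO/mdx, when it was -1.20, nor without either mdx library, with no filter on low values or with 1 prior variance. The ratio of Terc to Dkc1 was 0.770 and 0.133 (control), 0.432 and 0.213 (mdx), and 5.65 and 2.01 (labelled Sirt6mKO/mdx).

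The subunit genes of RNase P and MRP had the lowest counts. Pop1 (ENSMUSG00000022325), the largest subunit, had 36 and 78 (control), 74 and 44 (mdx), and 22 and 32 (labelled Sirt6mKO/mdx). The third group was under the other 4 libraries, with log2 differences of -1.08 (SE 0.52) against mdx and -0.97 (SE 0.52) against control, and mdx and control overlapped. The difference from control was -0.43 without the second control library and -1.52 without the first, and both met the criteria with the same total in every library (-1.68 and -1.56). Rpp30 (ENSMUSG00000024800) had 33 and 80 (control), 92 and 64 (mdx), and 84 and 119 (labelled Sirt6mKO/mdx). Neighbouring groups overlapped except that the third lay above control (0.94, SE 0.45; 0.32 without the first control library and 1.57 without the second), and its difference of 0.38 (SE 0.45) from mdx turned to -0.24 with the same total in all libraries.

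**Figure D2:**
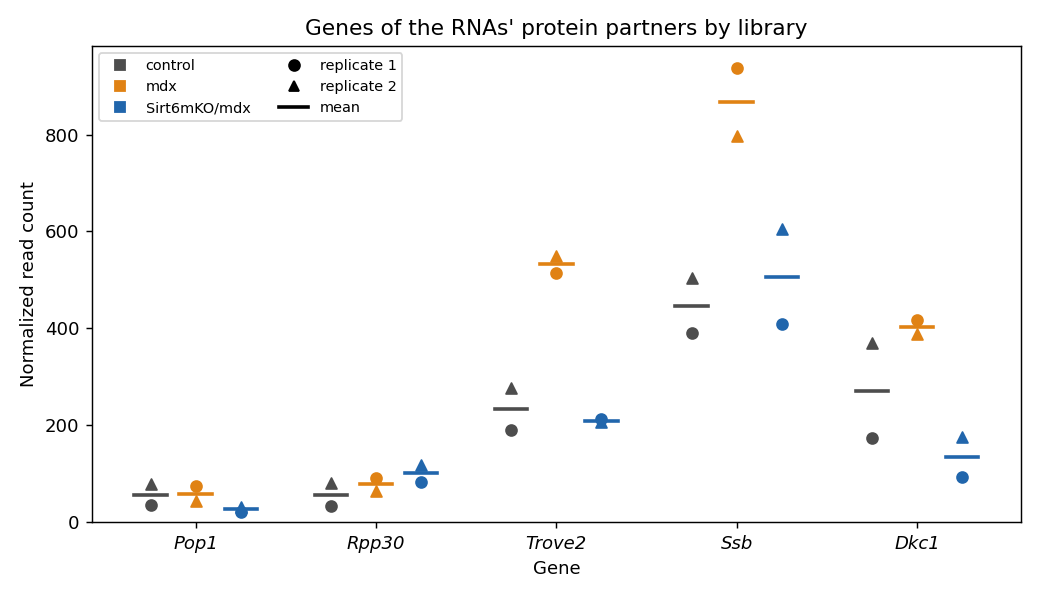
Normalized read count (linear axis from 0) of the 5 protein genes in each library, with circles for replicate 1, triangles for replicate 2 and a line at the mean. Trove2, Ssb and Dkc1 are highest in the mdx libraries, and Pop1 and Rpp30 stay at or under 119 throughout.

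Of the 5 protein genes, 2 (Trove2 and Dkc1) met the criteria downwards in the pair labelled Sirt6mKO/mdx against mdx, beside 2.54% of all tested genes, and none did upwards. For mdx against control Trove2 met them upwards, beside 6.89% of tested genes. None met them in either direction in the pair labelled Sirt6mKO/mdx against control, apart from the alternatives given above for Dkc1 and Pop1, beside 5.19% upwards and 2.68% downwards. The libraries did not overlap for 3 of the 5 upwards in mdx against control (28.7% of tested genes), for 4 downwards in the third group against mdx (27.2%), and for 1 upwards (26.3%) and 1 downwards (25.3%) in the third group against control. These counts too describe genes chosen with the data known.

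The remaining genes of the same particles, and those of the RNA polymerase III machinery, mostly did not pass the test. They were taken from 6 lists of 63 genes, of which 62 were in the table and tested. For mdx against control, 1 was called higher and 1 lower, beside 6.89% and 7.34% of all tested genes, with a median log2 difference of 0.16 beside 0.00, and 6 were higher and 4 lower at an unadjusted p under 0.05 (10 of 62, beside 31.0% of all tested genes). For the pair labelled Sirt6mKO/mdx against mdx, none was called higher and 3 lower by limma, beside 5.62% and 2.54%, with a median of -0.14 beside 0.02, and 4 were higher and 10 lower at an unadjusted p under 0.05 (14 of 62, beside 25.2%). For these against control, none was called higher and 1 lower, beside 5.19% and 2.68%, with a median of -0.06 beside 0.01, and 6 were higher and 7 lower at an unadjusted p under 0.05 (13 of 62, beside 24.1%). With all libraries brought to the same total, the numbers called lower in the last 2 comparisons were 18 and 16, while the median of all genes moved to -0.59 in both.

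None of the 8 further RNase P and MRP subunits was called by limma in any comparison, and none had an unadjusted p under 0.05, while 14.2%, 8.17% and 7.87% of all tested genes were called in the 3 comparisons. The most abundant were Pop5 (168 and 128 in control, 122 and 116 in mdx, 190 and 115 in the pair labelled Sirt6mKO/mdx), Pop4 (79 and 117, 136 and 180, 94 and 119) and Rpp14 (44 and 99, 116 and 114, 116 and 58). For the third group against mdx their log2 differences were 0.31 (SE 0.33), -0.56 (SE 0.34) and -0.48 (SE 0.44). Of the 8, 7 had a lower mean log2 value in that comparison, with a median of -0.37.

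Among 10 further genes of proteins that bind or trim Y RNAs, Ptbp1 fell in mdx and Ncl fell in the pair labelled Sirt6mKO/mdx. Ptbp1, a splicing regulator, had 1000 and 1039 (control), 451 and 403 (mdx), and 700 and 542 (labelled Sirt6mKO/mdx). Its log2 difference of -1.26 (SE 0.24) between mdx and control had a limma adjusted p of 0.00272 and stayed called without any 1 library. Ncl, the nucleolar protein nucleolin, had 1378 and 2219 (control), 2499 and 2281 (mdx), and 990 and 1199 (labelled Sirt6mKO/mdx), a difference from mdx of -1.13 (SE 0.28, limma adjusted p = 0.0222). Matr3 and Hnrnpk, of similar abundance, differed from mdx by -0.34 (SE 0.28) and -0.05 (SE 0.27) and were not called.

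Of 15 further genes of telomerase and its assembly, Tgs1 fell in the pair labelled Sirt6mKO/mdx. Tgs1, which adds the trimethylguanosine cap, had 128 and 167 (control), 290 and 169 (mdx), and 85 and 99 (labelled Sirt6mKO/mdx), a difference from mdx of -1.26 (SE 0.33, limma adjusted p = 0.0293). Tep1 (482 and 315, 257 and 372, 293 and 298) and Papd5, a poly(A) polymerase of Terc maturation (325 and 358, 205 and 219, 220 and 209), had the highest means and were not called. The 7 shelterin genes, which cover chromosome ends, were not called by limma either, while 1, 2 and 4 of them had an unadjusted p under 0.05 in mdx against control, the third group against mdx and the third group against control, beside 31.0%, 25.2% and 24.1% of all tested genes. Terf1 (133 and 110, 163 and 107, 234 and 207) had the largest difference among the 3 most abundant, 0.86 (SE 0.31, limma adjusted p = 0.103) for the third group against control, Terf2 differed by -0.70 (SE 0.30) there and Pot1a by 0.75 (SE 0.30).

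In RNA polymerase III itself, Polr3f was the subunit gene with calls in 2 comparisons. It had 86 and 87 (control), 255 and 193 (mdx), and 65 and 108 (labelled Sirt6mKO/mdx), so that it rose in mdx (1.35, SE 0.34, limma adjusted p = 0.0150) and fell in the third group against mdx (-1.39, SE 0.34, limma adjusted p = 0.0212). Polr3e, with 205 and 308, 202 and 197, and 115 and 125, fell in the third group against control (-1.06, SE 0.29, limma adjusted p = 0.0347). The other 9 subunits were not called, among them Polr3b (224 and 225, 179 and 205, 155 and 171). None of the 11 factors that act with the polymerase at promoters of this kind was called by limma, with 1, 1 and 2 at an unadjusted p under 0.05 in mdx against control, the third group against mdx and the third group against control, beside 31.0%, 25.2% and 24.1% of all tested genes. Among the 11 factors Bdp1 differed by -0.15 (SE 0.24), Pou2f1 by 0.03 (SE 0.25) and Maf1, a repressor of the polymerase, by 0.38 (SE 0.29) between the third group and mdx.

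The calls of Ncl, Tgs1 and Polr3f against mdx were each lost when any 1 of the 4 mdx and Sirt6mKO/mdx libraries was left out, with log2 differences between -1.76 and -0.99, -1.88 and -0.87, and -2.01 and -1.03 over all alternatives. That of Polr3f in mdx against control was lost without the first control library or either mdx library, and that of Polr3e when any 1 library other than the first control was left out.

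**Figure D3:**
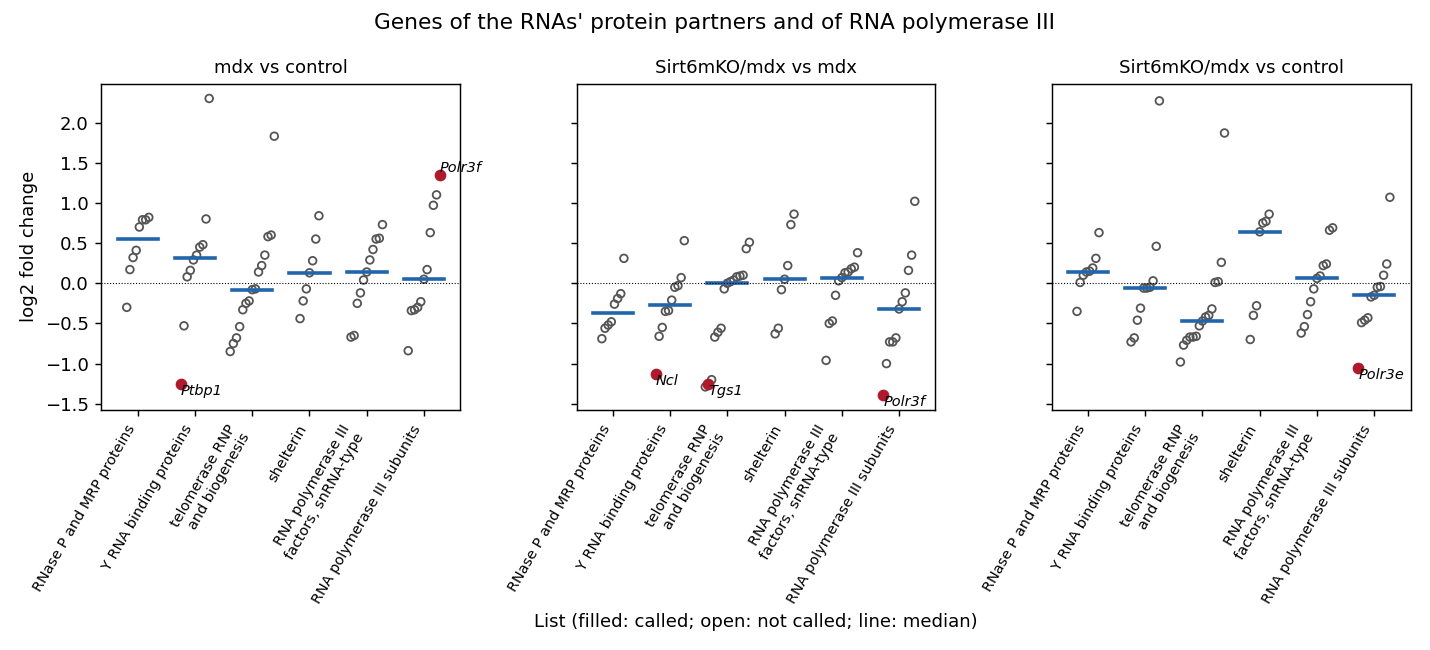
Log2 fold change of 62 genes in 6 lists of protein partners and RNA polymerase III genes, 1 panel for each comparison, with filled points for called genes and a line at the median of each list. The points lie on both sides of 0 in every list, and the called genes are Ptbp1, Polr3f, Ncl, Tgs1 and Polr3e.

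Genes beside the RNA genes were described as well. Parp2, which starts from the same stretch as Rpph1 in the opposite direction, had normalized read counts of 136 and 177 (control), 176 and 168 (mdx), and 80 and 73 (labelled Sirt6mKO/mdx). It fell against mdx by 1.16 on the log2 scale (SE 0.31, limma adjusted p = 0.0316), in the direction opposite to the difference of Rpph1. Pdia4, a chaperone gene 7962 bases from Rny1, had 332 and 635, 834 and 702, and 283 and 298, and fell against mdx by 1.39 (SE 0.29, limma adjusted p = 0.00884). Both calls were lost without any 1 of the 4 libraries compared. Ezh2, a histone methyltransferase gene 192728 bases from Rny1, had 515 and 339, 378 and 350, and 684 and 666. It was higher against mdx by 0.89 (SE 0.26, limma adjusted p = 0.0446) and was not called, because the log2 fold change was under 1. Ccdc107 had 30 and 8, 11 and 15, and 26 and 13, and was not called. The gene nearest to Terc in the table is a pseudogene at 1076 bases, and Lrrc34, listed at 0 to 2, is on the same chromosome but 65766568 bases away.

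Other small RNA genes were also higher in the pair labelled Sirt6mKO/mdx. The table holds 1130 other genes of the types misc_RNA, snoRNA and snRNA, of which 547 were tested. Between the pair labelled Sirt6mKO/mdx and mdx their median log2 difference was 1.58 (quartiles 0.95 and 2.09), 165 (30.2%) were called higher and none lower by limma, with 315 higher and 1 lower at an unadjusted p under 0.05. Against control the median was 2.0, with 235 (43.0%) called higher and 2 lower. For mdx against control it was 0.40, with 89 (16.3%) called higher and 24 lower. Of all tested genes, 5.62%, 5.19% and 6.89% were called higher in these 3 comparisons, and 2.54%, 2.68% and 7.34% lower.

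Placed among these 547 genes, the RNAs were not at the extreme. Between the pair labelled Sirt6mKO/mdx and mdx, 86.3% of them had a smaller difference than Rmrp, 82.8% than Rpph1, 75% than Rny1, 63.3% than Terc and 45.7% than Rny3. For mdx against control the order was another, with 88.3% of the 547 genes below Rny3, 64.5% below Rny1, 57.4% below Terc, 38.2% below Rmrp and 26.3% below Rpph1.

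Among protein-coding genes the median difference was higher for shorter transcripts. The 50 tested genes of up to 500 exonic bases had a median log2 difference of 0.62 between the pair labelled Sirt6mKO/mdx and mdx, those over 500 and up to 1000 bases 0.30 and longer ones -0.05. Against control the medians were 1.18, 0.43 and -0.02, and for mdx against control they were 0.70, 0.13 and 0.03. Length did not order the other classes in this way, since in mdx against control miRNA genes were at -0.66 and misc_RNA genes at -0.15, and between the third group and mdx lincRNA genes, with a median of 2412 exonic bases, were at 0.61. The small RNA types, the 5 RNAs included, took 23.6% and 15.4% of all normalized counts (control), 25.9% and 18.3% (mdx), and 43.0% and 47.0% (labelled Sirt6mKO/mdx), and protein-coding genes 63.4% and 78.8%, 62.1% and 65.9%, and 39.7% and 42.8%. The parts of transcript length and of library composition in the values of the 5 RNAs were not tested.

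**Figure D4:**
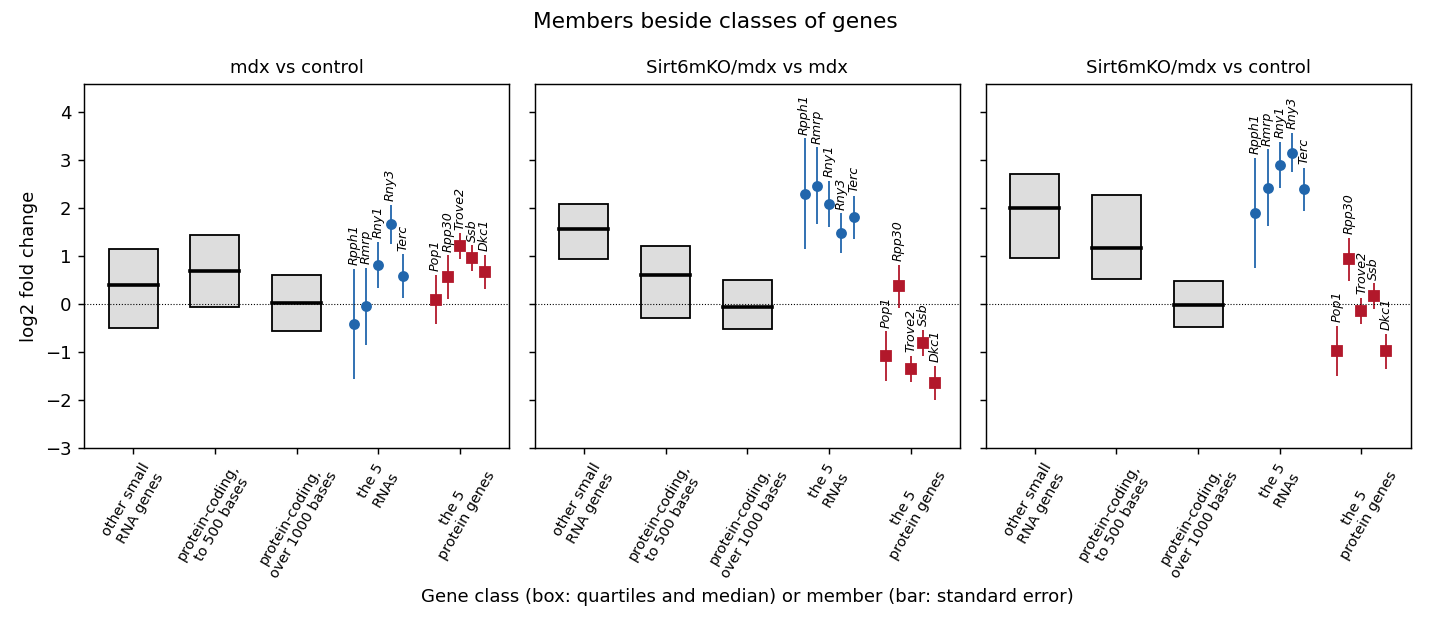
Log2 fold change in the 3 comparisons for classes of genes (box at the quartiles, line at the median, members left out) and for the 5 RNAs and 5 protein genes (points with bars of 1 standard error). In both comparisons with the pair labelled Sirt6mKO/mdx the RNAs lie within or above the box of the other small RNA genes, and in mdx against control Rpph1 and Rmrp lie at -0.41 and -0.04.

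The 5 RNAs together made up 2.31% and 1.03% of all normalized counts (control), 1.85% and 1.13% (mdx), and 5.52% and 3.73% (labelled Sirt6mKO/mdx). In each group the first library held more of every one of the 5 RNAs, with ratios of the first to the second library from 1.57 to 2.96 in control, 1.56 to 2.17 in mdx and 1.29 to 1.82 in the third group. The control ratios were lowest for Rny3 and highest for Rpph1. Over the other small RNA genes the median of that ratio was 1.98, 1.33 and 1.24. The 5 protein genes together made up between 0.00853% and 0.0328%.

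**Figure D5:**
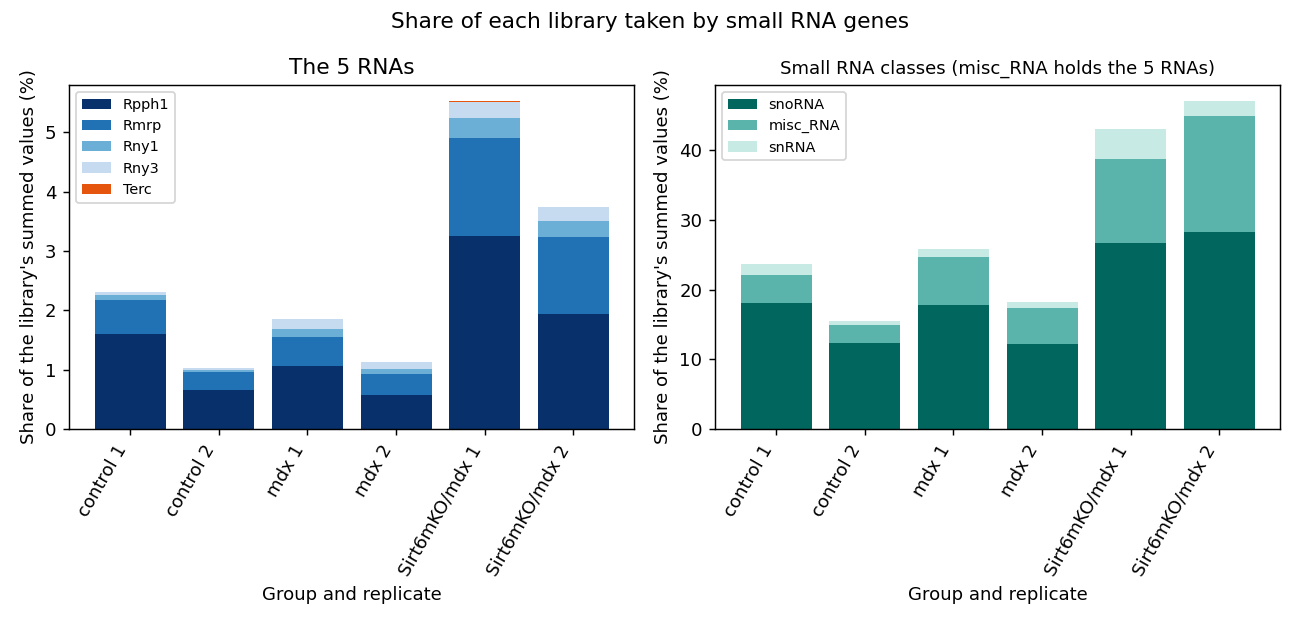
Share of each library's normalized counts (%, bars from 0) taken by the 5 RNAs on the left and by the types snoRNA, misc_RNA and snRNA on the right. The libraries labelled Sirt6mKO/mdx hold 5.52% and 3.73% for the 5 RNAs, against at most 2.31% in the other libraries, and 43.0% and 47.0% for the 3 types.

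Other small RNAs of known function differed in various ways. Vaultrc5, a vault RNA made by RNA polymerase III, had 1705 and 769 (control), 8290 and 3733 (mdx), and 12771 and 11101 (labelled Sirt6mKO/mdx), and it rose in mdx by 2.28 (SE 0.42, limma adjusted p = 0.00204), as the called Rnu73b did by 1.67 (SE 0.33) and Rnu11 by 1.0 (SE 0.30). The calls of Vaultrc5 and Rnu73b in mdx were lost in 2 and 4 of 17 alternatives. Between the third group and mdx neither was called, with Vaultrc5 at 1.10 (SE 0.42) and Rnu73b at 0.22 (SE 0.33) with overlap. Rnu12, the U12 RNA of the minor spliceosome, had 2613 and 1036, 1642 and 780, and 10409 and 5330, and rose in the third group by 2.72 against mdx (SE 0.44, limma adjusted p = 0.00156), a call lost without the second mdx or the first Sirt6mKO/mdx library. Rnu11 was also called higher in the third group, by 1.34 against mdx (SE 0.30, limma adjusted p = 0.0129) and 2.34 against control (SE 0.30, limma adjusted p = 0.000213). Its calls were lost in 9 of 17 alternatives for mdx against control (0.56 to 1.44), in 7 for the third group against mdx and in 2 for the third group against control. Rn7sk, with 93611 and 75143, 305947 and 213198, and 593895 and 1116360, and Rnu3a were higher in the third group as well, by 1.67 (SE 1.97) and 1.57 (SE 0.99) against mdx, and were not called.

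Markers of other cells and states also moved between groups. The list of 12 immediate early and stress genes, 10 immediate early genes and the heat shock chaperones Hspa1a and Hspa1b, summed to 136783 and 148519 (control), 20898 and 23217 (mdx), and 110385 and 97050 (labelled Sirt6mKO/mdx). In mdx 12 of 12 were called lower, beside 7.34% of all tested genes, and in the third group against mdx 12 of 12 were called higher, beside 5.62%. Without Hspa1a and Hspa1b, near-identical genes whose own counts are uncertain, the sums were 68539 and 74503, 8992 and 10975, and 60632 and 59958. The 11 proliferation genes summed to 1667 to 1699, 2265 to 3199 and 1210 to 1890, with 6 called higher in mdx (beside 6.89% of all tested genes) and 5 lower in the third group against mdx (beside 2.54%). Trove2 met the criteria in both of these directions and Dkc1 in the second, with 0.67 in the first. The other proliferation genes were not called, among them Pcna at -0.88 in mdx against control and 0.30 in the third group against mdx, and Ccnb1 at 1.28 and 0.51. The 4 endothelial markers summed to 751 to 894, 400 to 403 and 608 to 622, the 5 myofibre markers to 5029 to 6103, 991 to 2930 and 3193 to 6538, the 4 leukocyte markers in the table to 104 to 129, 76 to 91 and 157 to 177, and the 5 fibro-adipogenic markers to 1726 to 2261, 2859 to 4689 and 2235 to 3672. In mdx against control Pecam1, Kdr, Acta1, Ckm and Myh1 were called lower, and Ly6a and Col1a1 higher. In the third group against mdx Acta1 and Myh1 were called higher and Col1a1 lower (-1.08), while Dcn and Lum were at 0.30 and 0.33. The remaining endothelial, myofibre and fibro-adipogenic markers were not called. The leukocyte markers did not move together. In mdx against control Cd68 was called lower (86 and 88 against 30 and 26, log2 difference -1.60, SE 0.44, limma adjusted p = 0.0217) and Lyz2 higher (0 and 14 against 47 and 26, 3.22, SE 0.98, limma adjusted p = 0.0350). Csf1r (-0.64) and Ptprc, at 0 in both control libraries and at 3 to 19 in the others, were not called, and Adgre1 was not analysed here. In the third group against mdx none of the 4 was called by limma, and Cd68 (1.44, SE 0.44, limma adjusted p = 0.0533) had an unadjusted p under 0.05. Against control Lyz2 was called higher in the third group (0 and 14 against 39 and 67, 3.75, SE 0.98, limma adjusted p = 0.0270) and the other 3 were not called. The part of these cells and states in the values of the RNAs and protein genes was not tested, and fewer cells of a type and less RNA per cell cannot be told apart in sorted bulk samples.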

How the data were processed

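RNA was taken from sorted mouse muscle stem cells (Sca1-, CD45- and CD31-, Integrin-a7+ and CD34+, or carrying a fluorescent reporter). Per the labels, ribosomal RNA was depleted with RiboMinus and libraries were made with the Ion Total RNA-Seq kit. Per the submitters' processing notes, reads were checked with FastQC 0.10.1, aligned with STAR 2.4.2a to mm10, counted per gene with featureCounts 1.4.5-p1 and normalized with DESeq2 1.6.0. Reads on several genes or places were left out. The authors deposited the normalized counts rounded to whole numbers, a score for the purpose of testing, so count models were not used. Besides gene annotation, the table holds 1 column of values per library, and no column of per-sample values lacked a sample.

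The deposited values were tested with limma 3.58.1 (R 4.3.3) on log2(value + 1), with a trended prior variance, over all 6 libraries without a replicate block, keeping the 15915 of 22706 genes whose mean reached 5. A fold change is on that scale and understates the change of low genes. Genes were called at a Benjamini-Hochberg adjusted p of at most 0.05 and an absolute log2 fold change of at least 1. The members and gene lists were chosen with earlier results of these data known. All 10 members were named, then partner genes that were called and, where fewer than 3 of a list were called, its most abundant members up to 3, all listed neighbours and other small RNAs, and for each RNA the 3 genes most alike. Size factors were estimated from the spacing of small values, a step tested on 7 simulated libraries, whose factors it recovered. Positions and lengths came from GENCODE M21 (98.5% of gene IDs found) and promoters from RefSeq. Copies of the RNAs were searched with blastn 2.17.0+. The 2 samples of a group differed, so none was counted once. Depth was an estimated 4397632 to 9745218 reads per library. The alternatives were another pseudocount, filter, scaling or prior variance, fewer libraries and the replicate block.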

Additional observations from a re-analysis of the deposited data

How the results depend on the processing

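The differences of the 10 members were recomputed under 17 alternatives, of which scaling by the total of protein-coding genes was chosen after seeing the data. Of 507 values, 495 moved by no more than the spread between replicates and 12 by more, and no difference of a member that met the criteria changed sign. These counts say little about stability, because many alternatives could not exceed that spread. Leaving out 1 of the 2 libraries of a group cannot move a difference beyond it. Another filter or prior variance, the block, or only the 4 libraries of the comparison leave the log2 difference as it was. The cause of the changes below was not tested, except that fewer libraries or other gene sets enter some fits by construction. With the same total in every library, the median of all genes went to -0.59 in both comparisons with the libraries labelled Sirt6mKO/mdx. Against mdx the members were then at 1.84 (Rmrp), 1.47 (Rny1), 0.86 (Rny3), -1.96 (Trove2), -1.42 (Ssb), -1.68 (Pop1), -0.24 (Rpp30) and -2.27 (Dkc1), and against control at 2.55 (Rny3), -0.73 (Trove2) and -0.44 (Ssb). With the same upper quartile Trove2 was at -1.45 against mdx.

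Counts of called genes are given as higher and lower. For mdx against control (1097 and 1168 of all genes, 1 and 1 of the partner genes) they were 128 and 278 (partner genes 0 and 0) with no filter on low values and 181 and 360 (0 and 0) with 1 prior variance for all genes. Partner genes called higher were 2 with a mean of at least 50, 2 with the same upper quartile, 2 with the robust prior and 3 with the protein-coding total. For the libraries labelled Sirt6mKO/mdx against mdx (895 and 405, partner genes 0 and 3) they were 19 and 0 (0 and 0) with no filter, 0 and 0 (0 and 0) with 1 prior variance, 479 and 2937 (lower partner genes 18) with the same total, and 623 lower with the same upper quartile. For these against control (826 and 427, partner genes 0 and 1) they were 1 and 1 (0 and 0) with no filter, 65 and 22 (0 and 0) with 1 prior variance, 455 and 2693 (lower partner genes 16) with the same total, 541 higher (lower partner genes 0) with only the 4 libraries of the comparison, and 260 lower (partner genes 1 and 0) with the protein-coding total. In the fits with 0 calls, 3156 genes (1 prior variance) had an unadjusted p under 0.05. The share of calls that were higher was 48.4%, 68.8% and 65.9% in the 3 comparisons. It was 31.5%, 100% and 50% with no filter, 33.5% in the first with 1 prior variance, 14.0% and 14.5% in the last 2 with the same total, 53.6% in the second with the same upper quartile, and 62.2% and 81.3% in the first and last with the protein-coding total, which moved the median of all genes to 0.17 and 0.18.

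Leaving out 1 library, which assumes that a lone sample varies like the other groups, gave 282 to 1192 genes higher and 657 to 1164 lower (partner genes 0 to 1 and 1 to 1) for mdx against control, 182 to 997 genes higher and 21 to 481 lower (partner genes 0 to 0 and 0 to 3) for the libraries labelled Sirt6mKO/mdx against mdx and 167 to 853 genes higher and 46 to 461 lower (partner genes 0 to 0 and 0 to 1) for these against control. Calls of partner genes, neighbours and other small RNAs never changed sign.

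The replicate block, which takes the numbers 1 and 2 as pairs, gave 2415, 1510 and 1404 calls against 2265, 1300 and 1253 without it. The deviations of same-numbered libraries correlated at -0.13, 0.12 and 0.01 over 15915 genes, so the numbers were not taken to pair the libraries, although the first library of each group held more of each of the 5 RNAs. With the block Rmrp met the criteria in both comparisons with the libraries labelled Sirt6mKO/mdx (2.47 and 2.43), and the calls of the other members did not change. With at most 9745218 reads a library, Pop1 (22 to 78) and Rpp30 (33 to 119) had the lowest mean normalized counts of the 10 members.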

Other observations

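The genes whose course over the 6 libraries was most like that of each RNA were mostly snoRNA genes. The measure was the root mean square difference of log2(value + 1) after centring each gene, over 9665 genes with a mean of at least 50. Rpph1 was most like the snoRNA gene Gm22581 (0.16) and Rnu12 (0.18), the U12 spliceosomal RNA, and then the lincRNA gene 6720427I07Rik (0.27). Rnu12 had normalized read counts of 2613 and 1036 (control) and 1642 and 780 (mdx), which overlapped, as those of Rpph1 did. Rmrp was most like the snoRNA genes Gm25492 (0.19), Gm23442 (0.19) and Snord71 (0.23). Rny1 was most like Scarna13 (0.11), Gm23297 (0.14) and Snora62 (0.15), and Scarna13 had normalized read counts of 3154 and 1391 (control), 4375 and 2627 (mdx), and 14721 and 13052 (labelled Sirt6mKO/mdx). Rny3 was most like Gm22767 (0.18), Gm23344 (0.21) and Snord65 (0.21), and Terc like Gm25517 (0.16), Gm23297 (0.17) and Mir1949 (0.21), all of the type snoRNA in the table.

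Among the 5 RNAs themselves, the same measure was smallest for Rny1 and Terc (0.24) and for Rpph1 and Rmrp (0.30), and largest for Rpph1 and Rny3 (0.91). The distance between the Y RNAs was 0.41. These are descriptions over 6 libraries that share depth, size factor and composition.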
